A study of Mus musculus with 24 samples.

Results

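Chemokines, interleukins and interleukin receptor chains were examined in mouse embryonic fibroblasts given cocktails of cardiac reprogramming factors. The members were the protein-coding genes in the count table whose symbol starts with Ccl, Cxcl, Cx3cl or Il followed by a digit, which made 118 of 47967 genes. Of these, 23 were CC chemokines, 13 were CXC or CX3C chemokines, 41 were interleukins or other Il genes and 41 were interleukin receptor chains. A choice by symbol takes in binding proteins, receptor antagonists and an enzyme gene as well as cytokines, and it leaves out relatives with other symbols. A member was counted as detected at a mean of 1 or more counts-per-million (CPM) in at least 1 group, and 63 members passed: 14 CC chemokines, 10 CXC or CX3C chemokines, 14 interleukins or other Il genes and 25 receptor chains. Just inside this threshold stood Il12b, at a highest group mean of 1.22 CPM, and just outside stood Il1r2, at 0.898 CPM. Another 7 members had no count in any library.

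Bulk RNA sequencing was used, in a series on the mechanism of direct cardiac reprogramming. Fibroblasts from C57BL/6 embryos at E13.5 to E14.5 were transduced with retroviruses and moved to an induction medium. The 8 groups were AGHMT, GHMT, GMT and mock at day 7, and AGHMT, GHMT, GMT and mock at day 2, with 3 libraries each. In this field GMT is short for the transcription factors Gata4, Mef2c and Tbx5, the H of GHMT adds Hand2, and the A of AGHMT adds the kinase Akt1. Every group carried the same C57BL/6 background, and the labels do not state whether the mock cells received a virus without factors. The replicates are not described as separate cultures. The p-values thus reflect only the spread among libraries of the same group, estimated jointly over all 8 groups, and that spread may be technical. No batch is recorded; a batch running along with cocktail or day and the groups themselves cannot be told apart. In such bulk samples, fewer cells of a type and less RNA per cell cannot be told apart.

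The libraries held 29345957 to 37495178 counted reads each. Levels are CPM after TMM scaling, a scaling that allows for differences in RNA composition between libraries. The labelled cell type was checked against marker genes: all 10 fibroblast markers stood at 1 CPM or more in every group. Their summed level was 54488 to 61022 CPM in mock at day 7. With the cocktails at day 7 it was lower, at 13538.5 to 14283 CPM with AGHMT, 13223 to 13710 CPM with GHMT and 10690 to 11592 CPM with GMT. At day 2 it was 19893 to 21023 CPM with AGHMT, 23238 to 24116 CPM with GHMT and 21092 to 21967 CPM with GMT. Mock at day 2 held 30066 to 32775 CPM. What part these marker levels have in the changes of the members was not tested. The summed level of 8 cardiac muscle genes was 18043 to 18709 CPM with AGHMT, 12643 to 13452 CPM with GHMT and 8716 to 9087 CPM with GMT at day 7, against 19.4 to 22.8 CPM in mock. AGHMT replicate 3 at day 2 was the library furthest from its group. Without it, the calls of Ccl17, Il11 and Il21r for AGHMT against GHMT at day 2 and of Il15ra for AGHMT against mock at day 2 were lost, at edgeR adjusted p values of 0.107, 0.0591, 0.106 and 0.265, and Ccl12 and Ccl25 passed for AGHMT against GHMT at day 2, at 0.0477 and 0.0359. For the difference between the AGHMT effects at day 7 and day 2, the calls of Cxcl15 and Il15ra were among those lost.

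Chemokines are small secreted proteins that draw leukocytes along a gradient by binding G protein-coupled receptors, and Cxcl12 also guides progenitor cells during development. Interleukins carry signals between immune and tissue cells, mostly through receptor pairs that activate JAK kinases and STAT factors, while the interleukin 1 and interleukin 17 families signal to NF-kappaB. Fibroblasts are a known source of Ccl2, Cxcl12 and Il6 during injury and repair, and the mouse heart uses Il33 and its receptor Il1rl1 in the response to strain. Many of these genes lie in clusters of related neighbours, and their promoters often hold sites for NF-kappaB, AP-1 or interferon-activated factors.

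Promoter sequences are shown for 4 members on which the results turn, taken from RefSeq on GRCm38.p6 as the 250 bases before the annotated start, 5′ to 3′ on the gene's strand. They are shown because Il6 and Cxcl1 share a kappaB match and moved in opposite directions at day 7, Cxcl10 is an interferon-response chemokine, and Il1rl1 fell the furthest at day 2 among the 8 receptor chains with the highest CPM. Capitals mark matches to AP-1 (TGANTCA), to the interferon-stimulated response element (ISRE) or to the usual kappaB consensus, each searched on both strands.
Il6, chr5:30012864-30013113 +: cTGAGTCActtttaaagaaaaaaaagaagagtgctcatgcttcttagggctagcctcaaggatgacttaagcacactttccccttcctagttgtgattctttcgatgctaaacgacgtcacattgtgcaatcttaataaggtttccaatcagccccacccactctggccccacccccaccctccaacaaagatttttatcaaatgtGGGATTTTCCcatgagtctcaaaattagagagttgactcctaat
Cxcl1, chr5:90890995-90891244 +: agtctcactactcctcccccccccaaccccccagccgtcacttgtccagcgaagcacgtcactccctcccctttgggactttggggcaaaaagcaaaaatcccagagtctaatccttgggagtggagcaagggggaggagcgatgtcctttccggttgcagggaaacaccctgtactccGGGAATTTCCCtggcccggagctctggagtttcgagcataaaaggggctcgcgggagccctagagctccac
Cxcl10, chr5:92348890-92349139 -: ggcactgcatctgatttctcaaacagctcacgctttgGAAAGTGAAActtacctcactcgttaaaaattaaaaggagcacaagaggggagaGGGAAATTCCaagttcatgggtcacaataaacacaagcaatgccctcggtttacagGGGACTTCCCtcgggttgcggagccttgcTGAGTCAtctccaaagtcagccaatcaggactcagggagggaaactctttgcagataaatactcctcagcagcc
Il1rl1, upstream start, chr1:40429320-40429569 +: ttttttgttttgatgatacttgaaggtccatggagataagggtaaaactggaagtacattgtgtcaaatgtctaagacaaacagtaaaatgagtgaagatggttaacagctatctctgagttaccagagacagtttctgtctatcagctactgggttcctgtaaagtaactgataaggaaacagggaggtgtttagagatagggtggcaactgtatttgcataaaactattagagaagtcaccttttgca
Il1rl1, downstream start, chr1:40439379-40439628 +: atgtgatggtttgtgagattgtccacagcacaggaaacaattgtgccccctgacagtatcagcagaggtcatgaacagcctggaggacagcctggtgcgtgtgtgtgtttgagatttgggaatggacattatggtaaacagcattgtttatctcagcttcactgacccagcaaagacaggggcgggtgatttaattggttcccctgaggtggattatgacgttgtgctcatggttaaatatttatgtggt
The Il6 window held an AP-1 match 249 bases and a kappaB match 44 bases before the start. In the Cxcl1 window the capitals cover a pair of overlapping kappaB matches, 71 and 70 bases before the start. Cxcl10 held an ISRE match at 213 bases, kappaB matches at 159 and 103 bases and an AP-1 match at 74 bases before the start. Neither Il1rl1 window held a match, which says only that these letters are not in those windows.

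RefSeq windows were found for 91 of the 118 members, 112 windows in all, each running from 250 bases before the start to 50 after it. AP-1 matches were in 18.8% of the members' windows, beside 7.81% of all 32851 windows in the table. kappaB matches were in 12.5% of the members' windows, beside 4.51% of all windows, and ISRE matches were in 5.36%, beside 3.44%. A match is a description of the letters, and no binding was measured.

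Most detected members had their highest group mean in mock, at day 7 or day 2. Such a member need not lie below the mock of the same day with every cocktail. Among the 63 detected members the highest group mean was in mock for 40, of which 25 were highest at day 7 and 15 at day 2. GHMT at day 7 held the highest mean for 9 and AGHMT at day 7 for 5. Detection was set by this same highest mean, so a member detected only through mock had to be highest there. These counts thus describe the detected members only, and the share of all genes highest in mock is not given here. The summed level of all members was 1257 CPM with AGHMT, 1261 CPM with GHMT and 882 CPM with GMT at day 7, against 2632 CPM in mock. At day 2 it was 1235 CPM with AGHMT, 1359 CPM with GHMT and 850.5 CPM with GMT, against 2538 CPM in mock. A few members with many reads carry these sums, Il6st and Cxcl12 among them.

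For the test, 73 members had enough counts, including all 63 detected ones. At day 7, AGHMT differed from mock in 62 of the 73 (20 higher, 42 lower), where 76.8% of all 17576 genes tested were called. GHMT differed in 65 (21 higher, 44 lower), against a background of 72.0%, and GMT in 60 (17 higher, 43 lower), against 73.0%. At day 2, AGHMT differed from mock in 61 (20 higher, 41 lower), against 75.4% of all genes. GHMT differed in 53 (17 higher, 36 lower), against 68.2%, and GMT in 56 (13 higher, 43 lower), against 67.1%. Over all genes the calls were split about evenly: 38.6% were higher and 38.1% lower with AGHMT, 36.3% and 35.6% with GHMT, and 37.1% and 36.0% with GMT at day 7. At day 2 the shares were 38.0% higher and 37.4% lower with AGHMT, 34.9% and 33.3% with GHMT, and 33.9% and 33.1% with GMT. TMM scaling centres the bulk of genes near no change. This even split, and the all-gene median given below, thus largely follow from the scaling. Calls of at least 2-fold numbered 50 with AGHMT, 52 with GHMT and 45 with GMT at day 7, against 33.7%, 29.7% and 30.4% of all genes. At day 2 they numbered 45, 36 and 42 in the same order, against 32.1%, 25.7% and 24.7%. The median log2 fold change of the tested members was -0.97 with AGHMT, -0.95 with GHMT and -0.74 with GMT at day 7, and -0.87, -0.44 and -0.83 in the same order at day 2, while the median of all genes was between -0.0033 and 0.012. The share of tested members called was 72.6% to 89.0%, above the background in each of the 6 comparisons. A member that passed the filter only through mock or only through a cocktail had to differ, so these counts describe the tested members and not all 118.

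**Figure D1:**
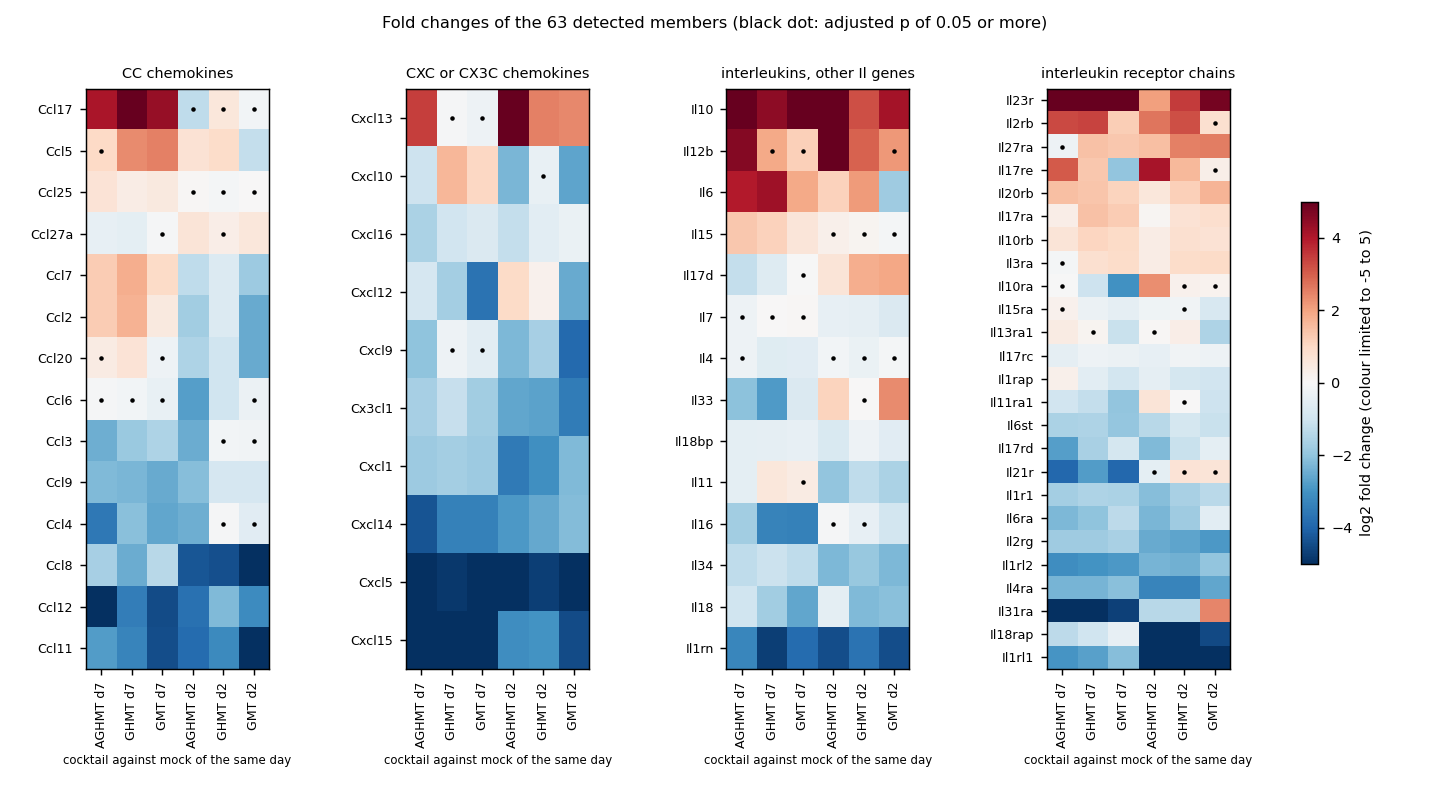
Log2 fold change of each cocktail against the mock of the same day for the 63 detected members, in 4 panels by role, with day 7 columns left of day 2 columns (d7, d2), red for higher and blue for lower with the cocktail. Colours are limited to -5 to 5, black dots mark an adjusted p of 0.05 or more, and rows are ordered by their mean fold change, with Ccl17, Cxcl13, Il10 and Il23r at the top of the panels.

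Among the CC chemokines, Ccl2 and Ccl7 were above mock at day 7 and below it at day 2 with every cocktail. Both proteins draw monocytes, and their genes are neighbours in a cluster of 6 members within 270.1 kb on chromosome 11 (ENSMUSG00000035385 for Ccl2, chr11:82035571-82037453, plus strand, GRCm38). Ccl2 stood at 82.8, 70.0 and 74.4 CPM with AGHMT, 94.8, 108 and 106 CPM with GHMT and 48.2, 42.1 and 40.9 CPM with GMT, against 32.1, 29.4 and 32.1 CPM in mock, at day 7. Ccl2 stood at 25.2, 28.0 and 33.8 CPM with AGHMT, 59.8, 49.8 and 71.5 CPM with GHMT and 17.9, 17.0 and 16.2 CPM with GMT, against 91.5, 109 and 89.6 CPM in mock, at day 2. Every cocktail library lay above every mock library at day 7 and below every mock library at day 2. Ccl2 log2 fold changes against the day 7 mock were 1.28 (SE 0.11, edgeR adjusted p = 1.22e-10) with AGHMT, 1.72 (SE 0.11, edgeR adjusted p = 4.07e-13) with GHMT and 0.49 (SE 0.11, edgeR adjusted p = 0.000398) with GMT. Ccl2 log2 fold changes against the day 2 mock were -1.74 (SE 0.11, edgeR adjusted p = 3.14e-13) with AGHMT, -0.68 (SE 0.11, edgeR adjusted p = 3.32e-06) with GHMT and -2.51 (SE 0.12, edgeR adjusted p = 7.05e-16) with GMT. The mock level itself was lower at day 7 than at day 2, by a log2 fold change of -1.63 (SE 0.11, edgeR adjusted p = 4.21e-12).

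Ccl7 stood at 94.3, 90.6 and 85.7 CPM with AGHMT, 119.5, 153 and 129.8 CPM with GHMT and 82.1, 70.2 and 68.2 CPM with GMT, against 35.2, 36.6 and 41.8 CPM in mock, at day 7. Ccl7 stood at 40.4, 44.1 and 58.7 CPM with AGHMT, 71.0, 59.5 and 85.2 CPM with GHMT and 32.7, 33.6 and 32.6 CPM with GMT, against 103, 131 and 112 CPM in mock, at day 2. Ccl7 thus had the same order of groups as Ccl2 at day 7, with GHMT highest and mock lowest. Ccl7 log2 fold changes against the day 7 mock were 1.253 (SE 0.13, edgeR adjusted p = 2.74e-09) with AGHMT, 1.83 (SE 0.13, edgeR adjusted p = 2.45e-12) with GHMT and 0.96 (SE 0.13, edgeR adjusted p = 3e-07) with GMT. Ccl7 log2 fold changes against the day 2 mock were -1.27 (SE 0.13, edgeR adjusted p = 1.56e-09) with AGHMT, -0.68 (SE 0.12, edgeR adjusted p = 2.8e-05) with GHMT and -1.81 (SE 0.13, edgeR adjusted p = 4.22e-12) with GMT. Per kilobase of exon, Ccl7 was the most abundant member in all 8 groups except mock at day 7, where Il6st and Cxcl12 stood above it. Its mean was 168 CPM per kb with GHMT at day 7, against 47.2 CPM per kb in mock at day 7.

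The other detected members of this cluster did not follow Ccl2 and Ccl7 at day 7. Ccl11, an attractant of eosinophils also called eotaxin, was low with every cocktail. Ccl11 stood at 0.220, 0.326 and 0.357 CPM with AGHMT, 0.140, 0.245 and 0.262 CPM with GHMT and 0.208, 0.0286 and 0.0537 CPM with GMT, against 2.19, 1.96 and 2.19 CPM in mock, at day 7. Ccl11 stood at 0.0869, 0.263 and 0.139 CPM with AGHMT, 0.363, 0.133 and 0.267 CPM with GHMT and 0.0258, 0.0846 and 0.0891 CPM with GMT, against 1.95, 2.71 and 2.30 CPM in mock, at day 2. No cocktail library reached a mock library at either day. Ccl11 log2 fold changes against the day 7 mock were -2.79 (SE 0.28, edgeR adjusted p = 1.65e-09) with AGHMT, -3.28 (SE 0.29, edgeR adjusted p = 2.65e-10) with GHMT and -4.43 (SE 0.34, edgeR adjusted p = 1.63e-11) with GMT. Ccl8, a further monocyte attractant, stood at 0.315, 0.228 and 0.268 CPM with AGHMT, 0.168, 0.136 and 0.164 CPM with GHMT and 0.356, 0.228 and 0.403 CPM with GMT, against 0.916, 0.724 and 0.983 CPM in mock, at day 7. At day 2 it stood at 0.116, 0.164 and 0.360 CPM with AGHMT, 0.165, 0.0663 and 0.366 CPM with GHMT and 0.0775, 0.141 and 0.0891 CPM with GMT, against 3.56, 4.6 and 4.70 CPM in mock. Ccl8 log2 fold changes against the day 2 mock were -4.28 (SE 0.26, edgeR adjusted p = 8.99e-14) with AGHMT, -4.40 (SE 0.27, edgeR adjusted p = 1.83e-13) with GHMT and -5.34 (SE 0.29, edgeR adjusted p = 1.87e-14) with GMT. Ccl12 fell as well, with log2 fold changes of -5.12 with AGHMT, -3.44 with GHMT and -4.45 with GMT at day 7 and -3.74 with AGHMT, -2.22 with GHMT and -3.13 with GMT at day 2, where mock held 1.94 ± 0.663 CPM at day 7 and 0.838 ± 0.0865 CPM at day 2 (SD, n = 3).

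Ccl17, which draws T cells through the receptor Ccr4, rose with every cocktail at day 7 and in none at day 2. Ccl17 stood at 1.26, 1.4 and 1.13 CPM with AGHMT, 8.41, 8.29 and 7.32 CPM with GHMT and 1.57, 1.6 and 1.37 CPM with GMT, against 0.0591, 0.121 and 0.0317 CPM in mock, at day 7. The GHMT libraries were the highest by a wide margin, and no cocktail library overlapped mock. Ccl17 log2 fold changes against the day 7 mock were 4.08 (SE 0.37, edgeR adjusted p = 3.49e-10) with AGHMT, 6.75 (SE 0.26, edgeR adjusted p = 8.94e-18) with GHMT and 4.34 (SE 0.35, edgeR adjusted p = 4.42e-11) with GMT. Ccl17 stood at 0.0290, 0.131 and 0 CPM with AGHMT, 0.132, 0.298 and 0.133 CPM with GHMT and 0.103, 0.0846 and 0.148 CPM with GMT, against 0.175, 0.108 and 0.0898 CPM in mock, at day 2. None of the 3 comparisons passed the test at day 2, where the log2 fold changes were -1.26 with AGHMT, 0.58 with GHMT and -0.15 with GMT; without AGHMT replicate 2 that of AGHMT did, lower than mock, at an edgeR adjusted p of 0.00734. It shares a cluster of 66.4 kb on chromosome 8 with Cx3cl1, which fell at both days and is described below.

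Ccl5, an attractant of T cells and monocytes that interferon and NF-kappaB induce, stood higher at day 2 than at day 7 in every group, mock included. Ccl5 stood at 11.4, 14.2 and 17.0 CPM with AGHMT, 14.2, 14.4 and 20.6 CPM with GHMT and 4.73, 3.38 and 3.21 CPM with GMT, against 6.82, 10.9 and 8.02 CPM in mock, at day 2. Ccl5 stood at 0.787, 1.08 and 0.684 CPM with AGHMT, 1.68, 2.83 and 1.84 CPM with GHMT and 2.40, 2.63 and 2.18 CPM with GMT, against 0.532, 0.302 and 0.412 CPM in mock, at day 7. At day 2 AGHMT and GHMT lay above mock and GMT below it. Ccl5 log2 fold changes against the day 2 mock were 0.72 (SE 0.17, edgeR adjusted p = 0.000524) with AGHMT, 0.93 (SE 0.17, edgeR adjusted p = 3.31e-05) with GHMT and -1.18 (SE 0.20, edgeR adjusted p = 1.16e-05) with GMT. Ccl5 log2 fold changes against the day 7 mock were 1.01 (SE 0.49, edgeR adjusted p = 0.0648) with AGHMT, 2.35 (SE 0.40, edgeR adjusted p = 1.09e-05) with GHMT and 2.52 (SE 0.39, edgeR adjusted p = 2.65e-06) with GMT. AGHMT at day 7 did not pass the test. It did pass with DESeq2 at an adjusted p of 0.00319, with only the compared libraries at an edgeR adjusted p of 0.00378, and with no filter on low counts.

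Ccl9, a macrophage-derived chemokine of mice, stood at 2.45, 1.53 and 1.72 CPM with AGHMT, 1.54, 1.74 and 2.23 CPM with GHMT and 1.78, 1.14 and 1.77 CPM with GMT, against 9.72, 6.15 and 10.9 CPM in mock, at day 7. Ccl9 log2 fold changes against the day 7 mock were -2.22 (SE 0.21, edgeR adjusted p = 5.06e-10) with AGHMT, -2.29 (SE 0.21, edgeR adjusted p = 3.24e-10) with GHMT and -2.50 (SE 0.21, edgeR adjusted p = 7.86e-11) with GMT. It shares a second chromosome 11 cluster of 138.9 kb with Ccl5, Ccl6, Ccl3 and Ccl4. Ccl3 and Ccl4 fell at day 7 too, with log2 fold changes of -2.43 with AGHMT, -1.87 with GHMT and -1.53 with GMT for Ccl3 and -3.57 with AGHMT, -2.08 with GHMT and -2.58 with GMT for Ccl4. Ccl6 passed the test in no cocktail at day 7, with log2 fold changes of -0.055 with AGHMT, -0.13 with GHMT and -0.37 with GMT. The summed level of 18 macrophage markers was lower at day 7 too, as Ccl9, Ccl3 and Ccl4 were, while Ccl6 was not called. This sum was 46.8 to 66.9 CPM with AGHMT, 67.4 to 71.7 CPM with GHMT and 62.9 to 75.6 CPM with GMT at day 7, against 434 to 635 CPM in mock. All 18 markers were lower with AGHMT and with GHMT at day 7 and 17 with GMT, and none was at 0 in a whole group. At day 2 the sum was 17.4 to 21.6 CPM with AGHMT, 39.8 to 47.1 CPM with GHMT and 48.4 to 62.4 CPM with GMT, against 63.4 to 63.7 CPM in mock. Their part in the change of Ccl9, Ccl3, Ccl4, Ccl12, Cxcl16, Il10ra, Il21r, Il2rg, Il16 and Il1rn was not tested.

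Ccl25, a chemokine of thymus and gut, stood at 9.34, 11.8 and 11.1 CPM with AGHMT, 8.18, 9.19 and 8.56 CPM with GHMT and 8.96, 10.1 and 9.75 CPM with GMT, against 5.41, 6.94 and 7.96 CPM in mock, at day 7. Ccl25 log2 fold changes against the day 7 mock were 0.67 (SE 0.11, edgeR adjusted p = 5.46e-06) with AGHMT, 0.36 (SE 0.11, edgeR adjusted p = 0.00573) with GHMT and 0.51 (SE 0.11, edgeR adjusted p = 0.000194) with GMT. The GHMT call was lost without mock replicate 1, at an edgeR adjusted p of 0.0744. Its exons share 204 bases (2.74%) with Elavl1 on the opposite strand, at a mean of 111 CPM with AGHMT at day 7, and the strand setting of the counting is not given in the sources used here, so reads of the pair cannot be told apart. Ccl20, which draws cells carrying Ccr6, was at most 1.62 ± 0.212 CPM, with GHMT at day 7, and fell in all 3 cocktails at day 2, by log2 fold changes of -1.54 with AGHMT, -0.98 with GHMT and -2.51 with GMT. Ccl27a, a skin chemokine, averaged 1.56 ± 0.292 CPM with AGHMT, 1.45 ± 0.238 with GHMT and 1.94 ± 0.285 with GMT, against 2.05 ± 0.0720 in mock, at day 7 (SD, n = 3 each), with log2 fold changes of -0.39 with AGHMT, -0.49 with GHMT and -0.072 with GMT, of which that of GMT did not pass the test. The AGHMT call of Ccl27a was lost without AGHMT replicate 2, at an edgeR adjusted p of 0.134. The GHMT call of Ccl20 at day 2 was lost without GHMT replicate 1 or 3 or mock replicate 1 or 2, at edgeR adjusted p values up to 0.122.

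Of the CXC and CX3C chemokines, Cxcl12 had the highest CPM (ENSMUSG00000061353, chr6:117168535-117181367, plus strand, GRCm38). It binds Cxcr4 and Ackr3, and fibroblasts and other stromal cells are a main source of it. Cxcl12 stood at 341, 359 and 331 CPM with AGHMT, 189, 183 and 191 CPM with GHMT and 43.4, 43.0 and 55.5 CPM with GMT, against 605, 621 and 594 CPM in mock, at day 7. The groups did not overlap and ran from AGHMT over GHMT to GMT among the cocktails. Cxcl12 stood at 461, 470.2 and 445 CPM with AGHMT, 298, 275 and 269.7 CPM with GHMT and 44.0, 39.6 and 42.9 CPM with GMT, against 221, 245 and 251 CPM in mock, at day 2. At day 2 AGHMT and GHMT thus lay above mock and GMT far below it. Cxcl12 log2 fold changes against the day 7 mock were -0.82 (SE 0.068, edgeR adjusted p = 5.9e-11) with AGHMT, -1.69 (SE 0.07, edgeR adjusted p = 4.9e-17) with GHMT and -3.68 (SE 0.077, edgeR adjusted p = 3.53e-23) with GMT. Cxcl12 log2 fold changes against the day 2 mock were 0.94 (SE 0.068, edgeR adjusted p = 4.82e-12) with AGHMT, 0.23 (SE 0.068, edgeR adjusted p = 0.004) with GHMT and -2.50 (SE 0.074, edgeR adjusted p = 7.34e-20) with GMT. Mock held more Cxcl12 at day 7 than at day 2, by a log2 fold change of 1.34 (SE 0.069, edgeR adjusted p = 2.57e-14).

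GMT fibroblasts held the least Cxcl12 of all groups at both days. GHMT stood above GMT by a log2 fold change of 1.99 (SE 0.073, edgeR adjusted p = 3.08e-17) at day 7 and 2.74 (SE 0.074, edgeR adjusted p = 8.13e-20) at day 2. AGHMT stood above GHMT by 0.87 (SE 0.069, edgeR adjusted p = 1.04e-10) at day 7 and 0.71 (SE 0.068, edgeR adjusted p = 3.5e-09) at day 2. Ackr3, an atypical receptor that binds and removes Cxcl12, was at 24.2 CPM with AGHMT, 29.7 CPM with GHMT and 14.5 CPM with GMT, against 40.3 CPM in mock, at day 7.

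Cxcl5, Cxcl1 and Cxcl15 lie within 146.6 kb on chromosome 5, and all were lower with every cocktail at both days. Cxcl5 and Cxcl1 draw neutrophils through Cxcr2. Cxcl5 stood at 0.818, 0.816 and 1.04 CPM with AGHMT, 0.841, 1.39 and 1.38 CPM with GHMT and 0.534, 0.457 and 0.806 CPM with GMT, against 32.2, 37.8 and 32.1 CPM in mock, at day 7. Cxcl5 stood at 0.435, 0.657 and 0.388 CPM with AGHMT, 0.562, 0.663 and 0.999 CPM with GHMT and 0.517, 0.423 and 0.386 CPM with GMT, against 15.3, 20.1 and 22.8 CPM in mock, at day 2. Cxcl5 log2 fold changes against the day 7 mock were -5.24 (SE 0.17, edgeR adjusted p = 4.53e-19) with AGHMT, -4.83 (SE 0.16, edgeR adjusted p = 7.88e-19) with GHMT and -5.81 (SE 0.18, edgeR adjusted p = 1.63e-19) with GMT. Cxcl5 log2 fold changes against the day 2 mock were -5.31 (SE 0.20, edgeR adjusted p = 7.43e-18) with AGHMT, -4.71 (SE 0.19, edgeR adjusted p = 4.33e-17) with GHMT and -5.44 (SE 0.20, edgeR adjusted p = 6.81e-18) with GMT. No cocktail library came near a mock library at either day. Cxcl1 stood at 0.975, 0.947 and 1.01 CPM with AGHMT, 0.672, 1.44 and 1.12 CPM with GHMT and 1.22, 0.828 and 0.914 CPM with GMT, against 3.25, 4.31 and 2.88 CPM in mock, at day 7. Cxcl1 log2 fold changes against the day 7 mock were -1.83 (SE 0.21, edgeR adjusted p = 3.06e-08) with AGHMT, -1.69 (SE 0.21, edgeR adjusted p = 7.64e-08) with GHMT and -1.82 (SE 0.21, edgeR adjusted p = 2.42e-08) with GMT. Cxcl1 stood at 0.232, 0.362 and 0.388 CPM with AGHMT, 0.496, 0.298 and 0.566 CPM with GHMT and 0.878, 0.959 and 0.623 CPM with GMT, against 3.70, 3.41 and 4.49 CPM in mock, at day 2. Cxcl1 log2 fold changes against the day 2 mock were -3.55 (SE 0.26, edgeR adjusted p = 4.85e-12) with AGHMT, -3.08 (SE 0.25, edgeR adjusted p = 4.89e-11) with GHMT and -2.22 (SE 0.21, edgeR adjusted p = 1.04e-09) with GMT.

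Cxcl15, a chemokine known from mouse lung, was high in mock at day 7 and at or near 0 with every cocktail. Cxcl15 stood at 0, 0.0979 and 0 CPM with AGHMT, 0.0560, 0.0272 and 0 CPM with GHMT and 0.0297, 0.0571 and 0.0269 CPM with GMT, against 7.59, 7.96 and 8.56 CPM in mock, at day 7. The AGHMT libraries held 3 reads in all and the mock libraries 791, and the level was lower by 257-fold (95% exact interval 87.6 to 1249). With GHMT it was lower by 276-fold (95% exact interval 93.9 to 1339), again on 3 reads. GMT had a log2 fold change of -7.60 (SE 0.31, edgeR adjusted p = 3.02e-17). At day 2 mock itself held only 0.233, 0.352 and 0.269 CPM.

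Cxcl14, a chemokine of epithelia and stroma, and Cx3cl1, a membrane-bound chemokine read by Cx3cr1, were lower with every cocktail as well. Cxcl14 stood at 4.40, 4.15 and 3.78 CPM with AGHMT, 6.92, 9.11 and 7.05 CPM with GHMT and 8.07, 7.6 and 7.82 CPM with GMT, against 84.8, 80.0 and 77.5 CPM in mock, at day 7. Cxcl14 log2 fold changes against the day 7 mock were -4.30 (SE 0.091, edgeR adjusted p = 4.67e-23) with AGHMT, -3.39 (SE 0.083, edgeR adjusted p = 9.85e-22) with GHMT and -3.37 (SE 0.083, edgeR adjusted p = 9.68e-22) with GMT. Cxcl14 stood at 2.06, 1.97 and 2.11 CPM with AGHMT, 2.78, 2.48 and 2.50 CPM with GHMT and 3.67, 3.72 and 2.73 CPM with GMT, against 14.2, 16.2 and 15.2 CPM in mock, at day 2. Cxcl14 rose with time in mock, by a log2 fold change of 2.41 (SE 0.076, edgeR adjusted p = 2.64e-18). Cx3cl1 stood at 7.08, 7.25 and 8.89 CPM with AGHMT, 10.3, 11.1 and 12.0 CPM with GHMT and 7.45, 6.65 and 8.11 CPM with GMT, against 25.9, 25.2 and 22.6 CPM in mock, at day 7. Cx3cl1 stood at 6.11, 5.72 and 6.12 CPM with AGHMT, 6.05, 5.30 and 5.86 CPM with GHMT and 3.57, 2.99 and 3.21 CPM with GMT, against 36.8, 36.7 and 35.7 CPM in mock, at day 2. Cx3cl1 was lowest with GMT at day 2, and no cocktail library overlapped mock. Cx3cl1 log2 fold changes against the day 7 mock were -1.66 (SE 0.083, edgeR adjusted p = 2.09e-15) with AGHMT, -1.14 (SE 0.079, edgeR adjusted p = 1.72e-12) with GHMT and -1.73 (SE 0.082, edgeR adjusted p = 9.04e-16) with GMT. Cx3cl1 log2 fold changes against the day 2 mock were -2.60 (SE 0.083, edgeR adjusted p = 2.53e-19) with AGHMT, -2.66 (SE 0.085, edgeR adjusted p = 3.48e-19) with GHMT and -3.48 (SE 0.091, edgeR adjusted p = 5.77e-21) with GMT.

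Cxcl10 and Cxcl9, which draw activated T cells through Cxcr3 and are classic interferon-response genes, were high at day 2 and low at day 7 in mock. Cxcl10 stood at 24.3, 34.8 and 29.9 CPM with AGHMT, 136, 85.6 and 113 CPM with GHMT and 27.8, 24.6 and 16.9 CPM with GMT, against 116, 209 and 105 CPM in mock, at day 2. Cxcl10 log2 fold changes against the day 2 mock were -2.28 (SE 0.23, edgeR adjusted p = 2.06e-09) with AGHMT, -0.36 (SE 0.21, edgeR adjusted p = 0.134) with GHMT and -2.63 (SE 0.23, edgeR adjusted p = 2.72e-10) with GMT. Cxcl10 stood at 1.45, 2.64 and 1.64 CPM with AGHMT, 10.2, 14.4 and 12.2 CPM with GHMT and 7.53, 9.77 and 6.93 CPM with GMT, against 4.11, 2.26 and 5.36 CPM in mock, at day 7. At day 7 GHMT and GMT lay above mock, while AGHMT libraries overlapped it. Cxcl10 log2 fold changes against the day 7 mock were -1.04 (SE 0.46, edgeR adjusted p = 0.0448) with AGHMT, 1.66 (SE 0.33, edgeR adjusted p = 8.7e-05) with GHMT and 1.05 (SE 0.35, edgeR adjusted p = 0.0092) with GMT. The AGHMT call at day 7 was lost without AGHMT replicate 1 or 3 or mock replicate 1 or 3, at edgeR adjusted p values up to 0.195, and the GMT call at day 7 without mock replicate 2, at 0.0637. GHMT at day 2 passed without mock replicate 3, at an edgeR adjusted p of 0.035, and with no filter on low counts. Cxcl10 shares 133 exon bases (5.91%) with Art3 on the opposite strand. Art3 averaged 226 CPM with AGHMT, 81.2 CPM with GHMT and 62.0 CPM with GMT at day 7, against 0.183 CPM in mock, and its part in the Cxcl10 counts was not tested.

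Cxcl9 stood at 1.88, 2.70 and 2.55 CPM with AGHMT, 3.54, 2.85 and 4.06 CPM with GHMT and 0.646, 0.789 and 0.801 CPM with GMT, against 6.94, 15.9 and 10.5 CPM in mock, at day 2. Cxcl9 log2 fold changes against the day 2 mock were -2.23 (SE 0.22, edgeR adjusted p = 1.47e-09) with AGHMT, -1.68 (SE 0.21, edgeR adjusted p = 1.29e-07) with GHMT and -3.90 (SE 0.27, edgeR adjusted p = 1.79e-12) with GMT. Cxcl9 was thus below mock with every cocktail at day 2, and furthest with GMT. Cxcl9 stood at 0.0944, 0.196 and 0.0892 CPM with AGHMT, 0.252, 0.435 and 0.623 CPM with GHMT and 0.445, 0.314 and 0.322 CPM with GMT, against 0.473, 0.362 and 0.729 CPM in mock, at day 7. All groups were under 1 CPM by then, and the AGHMT log2 fold change was -2.02 (SE 0.70, edgeR adjusted p = 0.0119), a call lost without mock replicate 3 at an edgeR adjusted p of 0.0601. In mock, Cxcl9 differed between day 7 and day 2 by a log2 fold change of -4.42 (SE 0.29, edgeR adjusted p = 2.63e-12) and Cxcl10 by -5.20 (SE 0.29, edgeR adjusted p = 1.36e-13).

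Cxcl13, the attractant of B cells, stood above mock with AGHMT at both days and with GHMT and GMT at day 2. Cxcl13 stood at 4.44, 4.90 and 3.69 CPM with AGHMT, 0.224, 0.625 and 0.262 CPM with GHMT and 0.356, 0.286 and 0.349 CPM with GMT, against 0.532, 0.422 and 0.222 CPM in mock, at day 7. Cxcl13 stood at 3.22, 2.86 and 3.94 CPM with AGHMT, 0.363, 0.497 and 0.333 CPM with GHMT and 0.388, 0.423 and 0.297 CPM with GMT, against 0, 0.0271 and 0.180 CPM in mock, at day 2. AGHMT libraries were above all others at both days, and GHMT and GMT overlapped mock at day 7 but not at day 2. Cxcl13 log2 fold changes against the day 7 mock were 3.44 (SE 0.27, edgeR adjusted p = 1.7e-11) with AGHMT, -0.064 (SE 0.42, edgeR adjusted p = 0.9) with GHMT and -0.26 (SE 0.43, edgeR adjusted p = 0.606) with GMT. Cxcl13 log2 fold changes against the day 2 mock were 5.57 (SE 0.39, edgeR adjusted p = 1.92e-12) with AGHMT, 2.51 (SE 0.63, edgeR adjusted p = 0.00115) with GHMT and 2.41 (SE 0.62, edgeR adjusted p = 0.00148) with GMT. AGHMT stood above GHMT by a log2 fold change of 3.50 (SE 0.27, edgeR adjusted p = 5.36e-11) at day 7. Cxcl16, a transmembrane chemokine bound by Cxcr6, fell with every cocktail at both days, with log2 fold changes of -1.58 with AGHMT, -0.95 with GHMT and -0.74 with GMT at day 7 and -1.19 with AGHMT, -0.55 with GHMT and -0.33 with GMT at day 2. The GMT call of Cxcl16 at day 2 (edgeR adjusted p = 0.0398) was lost with DESeq2, with no filter on low counts, and without GMT replicate 2 or mock replicate 1 or 2, at adjusted p values of 0.056 to 0.238. Cxcl16 shares 18.3% of its exon bases with Zmynd15 on the opposite strand, which reached at most 1.09 CPM.

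**Figure D2:**
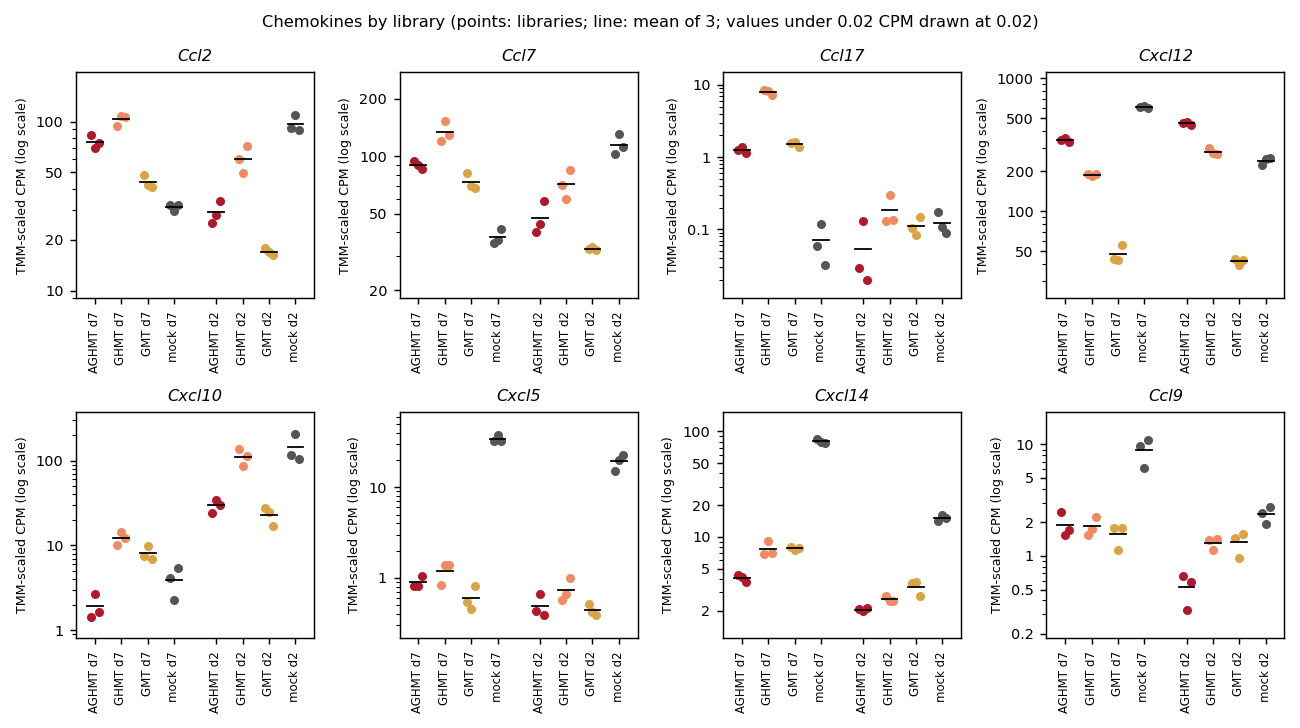
Level of 8 chemokines in each of the 24 libraries, in TMM-scaled CPM on a log scale, with AGHMT, GHMT, GMT and mock at day 7 (d7) left of the same groups at day 2 (d2). Points are libraries and black lines are means of 3, and each panel has its own axis. Ccl2 and Ccl7 sit above mock at day 7 and below it at day 2, Cxcl12 runs down from AGHMT to GMT, and Cxcl5 and Cxcl14 sit far below mock with every cocktail.

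Among the interleukins, Il6 had the largest rise in CPM (ENSMUSG00000025746, chr5:30013114-30019981, plus strand, GRCm38). It is an inflammatory cytokine that signals through Il6ra and the shared chain Il6st. Il6 stood at 7.96, 8.98 and 8.71 CPM with AGHMT, 9.33, 10.3 and 11.1 CPM with GHMT and 1.54, 1.91 and 2.61 CPM with GMT, against 0.561, 0.513 and 0.539 CPM in mock, at day 7. Il6 stood at 2.75, 3.42 and 3.55 CPM with AGHMT, 5.49, 6.49 and 6.93 CPM with GHMT and 0.336, 0.197 and 0.742 CPM with GMT, against 1.4, 1.71 and 1.2 CPM in mock, at day 2. No cocktail library overlapped mock at either day, and at day 2 GMT lay below mock while AGHMT and GHMT lay above it. Il6 log2 fold changes against the day 7 mock were 3.98 (SE 0.21, edgeR adjusted p = 9.77e-15) with AGHMT, 4.24 (SE 0.21, edgeR adjusted p = 1.82e-15) with GHMT and 1.91 (SE 0.27, edgeR adjusted p = 6.79e-07) with GMT. Il6 log2 fold changes against the day 2 mock were 1.17 (SE 0.20, edgeR adjusted p = 1.1e-05) with AGHMT, 2.13 (SE 0.18, edgeR adjusted p = 1.51e-10) with GHMT and -1.78 (SE 0.30, edgeR adjusted p = 1.07e-05) with GMT. GHMT exceeded GMT by a log2 fold change of 2.33 (SE 0.16, edgeR adjusted p = 8.03e-12) at day 7 and 3.90 (SE 0.23, edgeR adjusted p = 3.47e-13) at day 2.

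Il10, an anti-inflammatory cytokine, and Il12b, the subunit that interleukin 12 and interleukin 23 share, were near 0 in mock and highest with AGHMT at day 2. Il10 averaged 1.57 ± 0.172 CPM with AGHMT, 0.521 ± 0.146 with GHMT and 1.19 ± 0.215 with GMT, against 0.0211 ± 0.0366 in mock, at day 7 (SD, n = 3 each). It averaged 2.54 ± 0.129 CPM with AGHMT, 0.210 ± 0.0830 with GHMT and 0.404 ± 0.111 with GMT, against 0.0190 ± 0.0165 in mock, at day 2 (SD, n = 3 each). Mock held 2 reads of Il10 in all at each day. On those reads Il10 was higher by 77.0-fold (95% exact interval 20.9 to 641) with AGHMT, 25.8-fold (95% exact interval 6.82 to 219) with GHMT and 58.6-fold (95% exact interval 15.9 to 489) with GMT at day 7. These intervals cover counting error only. At day 2 the ratio was 133-fold (95% exact interval 36.3 to 1101) with AGHMT. AGHMT exceeded GHMT at day 2 by a log2 fold change of 3.57 (SE 0.27, edgeR adjusted p = 4.59e-11).

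Il12b averaged 1.22 ± 0.206 CPM with AGHMT, 0.0995 ± 0.0332 CPM with GHMT and 0.0558 ± 0.00388 CPM with GMT at day 2, where mock held 1 read in all (SD, n = 3 each). With AGHMT it was higher than mock by 127-fold (95% exact interval 22.4 to 5074) at day 2 and 32.8-fold (95% exact interval 5.48 to 1337) at day 7. AGHMT exceeded GHMT by a log2 fold change of 3.56 (SE 0.34, edgeR adjusted p = 2.85e-09) at day 2 and 2.69 (SE 0.51, edgeR adjusted p = 8.9e-05) at day 7. Only AGHMT at day 2 passed 1 CPM.

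Il1rn, the secreted antagonist of the interleukin 1 receptor, fell with every cocktail at both days. Il1rn stood at 2.83, 3.69 and 3.78 CPM with AGHMT, 1.12, 1.03 and 1.64 CPM with GHMT and 2.67, 1.83 and 2.31 CPM with GMT, against 37.4, 32.1 and 28.2 CPM in mock, at day 7. Il1rn stood at 0.666, 0.526 and 0.693 CPM with AGHMT, 1.02, 0.928 and 1.23 CPM with GHMT and 0.491, 0.761 and 0.683 CPM with GMT, against 12.6, 14.5 and 14.4 CPM in mock, at day 2. No cocktail library came near mock. Il1rn log2 fold changes against the day 7 mock were -3.24 (SE 0.12, edgeR adjusted p = 8.03e-18) with AGHMT, -4.70 (SE 0.14, edgeR adjusted p = 1.06e-19) with GHMT and -3.84 (SE 0.13, edgeR adjusted p = 7.81e-19) with GMT. Il1rn log2 fold changes against the day 2 mock were -4.44 (SE 0.18, edgeR adjusted p = 1.96e-17) with AGHMT, -3.70 (SE 0.16, edgeR adjusted p = 2.71e-16) with GHMT and -4.43 (SE 0.17, edgeR adjusted p = 2.22e-17) with GMT. Il18 and its binding protein Il18bp also lay below mock. Il18 stood at 1.54, 1.5 and 1.55 CPM with AGHMT, 1.09, 1.11 and 0.459 CPM with GHMT and 0.504, 0.485 and 0.511 CPM with GMT, against 2.84, 3.26 and 3.01 CPM in mock, at day 7. At day 7 the Il18 libraries of GMT were all below those of AGHMT. Il18 log2 fold changes were -0.99 with AGHMT, -1.74 with GHMT and -2.59 with GMT at day 7 and -0.48 with AGHMT, -2.19 with GHMT and -2.11 with GMT at day 2. The AGHMT call of Il18 at day 2 was lost with DESeq2, with no filter on low counts, with only the compared libraries, and without AGHMT replicate 1 or 2 or mock replicate 2 or 3, at adjusted p values of 0.0548 to 0.106. Il18bp log2 fold changes were -0.50 with AGHMT, -0.47 with GHMT and -0.42 with GMT at day 7, on a mock level of 2.69, 2.71 and 3.55 CPM, and -0.77 with AGHMT, -0.27 with GHMT and -0.55 with GMT at day 2, on 5.16, 5.44 and 5.36 CPM. The GHMT call of Il18bp at day 2 (edgeR adjusted p = 0.0476) was lost with DESeq2, RLE scaling, no filter on low counts or a replicate block, and without GHMT replicate 2 or 3 or any 1 mock library, at adjusted p values of 0.0541 to 0.24. Its day 7 calls were lost without mock replicate 3 for GHMT, at an edgeR adjusted p of 0.0583, and without GMT replicate 1 or mock replicate 3 for GMT, at 0.0823 and 0.0976. Exons of Il18bp share 80 bases (2.64%) with Numa1 on the opposite strand, at up to 259.9 CPM, and reads of that pair cannot be told apart.

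Il33, an alarmin released by injured cells and the ligand of Il1rl1, was below mock with every cocktail at day 7 and above it with AGHMT and GMT at day 2. Il33 stood at 4.00, 3.75 and 3.96 CPM with AGHMT, 1.79, 3.10 and 1.74 CPM with GHMT and 9.40, 8.20 and 11.3 CPM with GMT, against 16.7, 15.4 and 16.1 CPM in mock, at day 7. Il33 stood at 3.25, 2.99 and 3.41 CPM with AGHMT, 1.32, 1.79 and 1.43 CPM with GHMT and 7.18, 7.84 and 7.75 CPM with GMT, against 1.14, 1.65 and 1.65 CPM in mock, at day 2. At day 7 mock was highest and GHMT lowest in mean, and at day 2 GMT was highest. Il33 log2 fold changes against the day 7 mock were -2.04 (SE 0.13, edgeR adjusted p = 4.04e-13) with AGHMT, -2.84 (SE 0.14, edgeR adjusted p = 2.79e-15) with GHMT and -0.73 (SE 0.11, edgeR adjusted p = 3.39e-06) with GMT. Il33 log2 fold changes against the day 2 mock were 1.12 (SE 0.19, edgeR adjusted p = 9.26e-06) with AGHMT, 0.033 (SE 0.22, edgeR adjusted p = 0.907) with GHMT and 2.35 (SE 0.16, edgeR adjusted p = 3.02e-12) with GMT. Mock held more Il33 at day 7 than at day 2, by a log2 fold change of 3.44 (SE 0.15, edgeR adjusted p = 1.6e-15). GHMT lay below GMT by a log2 fold change of -2.11 (SE 0.15, edgeR adjusted p = 1.38e-11) at day 7 and -2.32 (SE 0.17, edgeR adjusted p = 2.16e-11) at day 2.

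Il17d, a less studied member of the interleukin 17 family, likewise differed by day. Il17d stood at 2.17, 2.06 and 1.75 CPM with AGHMT, 2.80, 3.13 and 2.89 CPM with GHMT and 4.15, 4.88 and 4.51 CPM with GMT, against 4.46, 5.16 and 4.09 CPM in mock, at day 7. Il17d stood at 2.41, 2.99 and 3.55 CPM with AGHMT, 6.11, 6.63 and 7.06 CPM with GHMT and 7.57, 7.56 and 6.26 CPM with GMT, against 1.78, 2.03 and 1.86 CPM in mock, at day 2. At day 2 all cocktail libraries exceeded mock, and at day 7 AGHMT and GHMT libraries were below it. Il17d log2 fold changes against the day 7 mock were -1.2 (SE 0.14, edgeR adjusted p = 2.12e-08) with AGHMT, -0.64 (SE 0.13, edgeR adjusted p = 8.35e-05) with GHMT and -0.017 (SE 0.12, edgeR adjusted p = 0.904) with GMT. Il17d log2 fold changes against the day 2 mock were 0.66 (SE 0.15, edgeR adjusted p = 0.000254) with AGHMT, 1.8 (SE 0.13, edgeR adjusted p = 5.89e-12) with GHMT and 1.92 (SE 0.13, edgeR adjusted p = 1.06e-12) with GMT. Il34, a ligand of the receptor Csf1r, fell throughout, with log2 fold changes of -1.28 with AGHMT, -1.06 with GHMT and -1.26 with GMT at day 7, on a mock level of 3.90, 3.56 and 2.76 CPM, and -2.24 with AGHMT, -1.90 with GHMT and -2.24 with GMT at day 2, on 2.59, 1.73 and 2.30 CPM. Il7, a lymphocyte growth factor, fell at day 2, by log2 fold changes of -0.41 with AGHMT, -0.44 with GHMT and -0.71 with GMT. The GHMT call of Il7 at day 2 was lost without GHMT replicate 2 or mock replicate 2, at edgeR adjusted p values of 0.146 and 0.0828. The AGHMT call was lost without AGHMT replicate 1 or mock replicate 2 and with only the compared libraries, at edgeR adjusted p values up to 0.191. At day 7 it passed the test in no cocktail and averaged 1.81 ± 0.356 CPM with AGHMT, 2.22 ± 0.280 with GHMT and 2.26 ± 0.324 with GMT, against 2.18 ± 0.321 in mock (SD, n = 3 each).

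The low interleukins differed among themselves. Il15, which supports natural killer cells, rose at day 7 by log2 fold changes of 1.33 with AGHMT, 1.16 with GHMT and 0.59 with GMT, on a mock level of 0.901 ± 0.116 CPM (SD, n = 3). The GMT call of Il15 was lost without GMT replicate 3 or mock replicate 2 or 3, at edgeR adjusted p values up to 0.0781. Il11, a relative of Il6 that acts on fibroblasts, fell at day 2 by log2 fold changes of -1.98 with AGHMT, -1.26 with GHMT and -1.6 with GMT and rose with GHMT at day 7, by 0.58. It was lower with AGHMT at day 7, by a log2 fold change of -0.50 (SE 0.21, edgeR adjusted p = 0.037), a call lost with DESeq2, with only the compared libraries, and without AGHMT replicate 2 or 3 or mock replicate 1 or 3, at adjusted p values of 0.0501 to 0.189. With GMT at day 7 Il11 did not pass, at 0.39 (SE 0.19, edgeR adjusted p = 0.0645). Il16 fell at day 7, by log2 fold changes of -1.75 with AGHMT, -3.33 with GHMT and -3.38 with GMT, and 15.3% of its exon bases are shared with Stard5 on the opposite strand, at up to 38.1 CPM. Il4, the type 2 cytokine, ranged between 0.991 and 1.51 CPM in group mean. At day 7 it was lower with GHMT and GMT, by log2 fold changes of -0.60 (SE 0.19, edgeR adjusted p = 0.00754) and -0.57 (SE 0.19, edgeR adjusted p = 0.00963), and both calls were lost without mock replicate 1, at edgeR adjusted p values of 0.0701 and 0.0863. The other 4 comparisons of Il4 with mock did not pass.

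**Figure D3:**
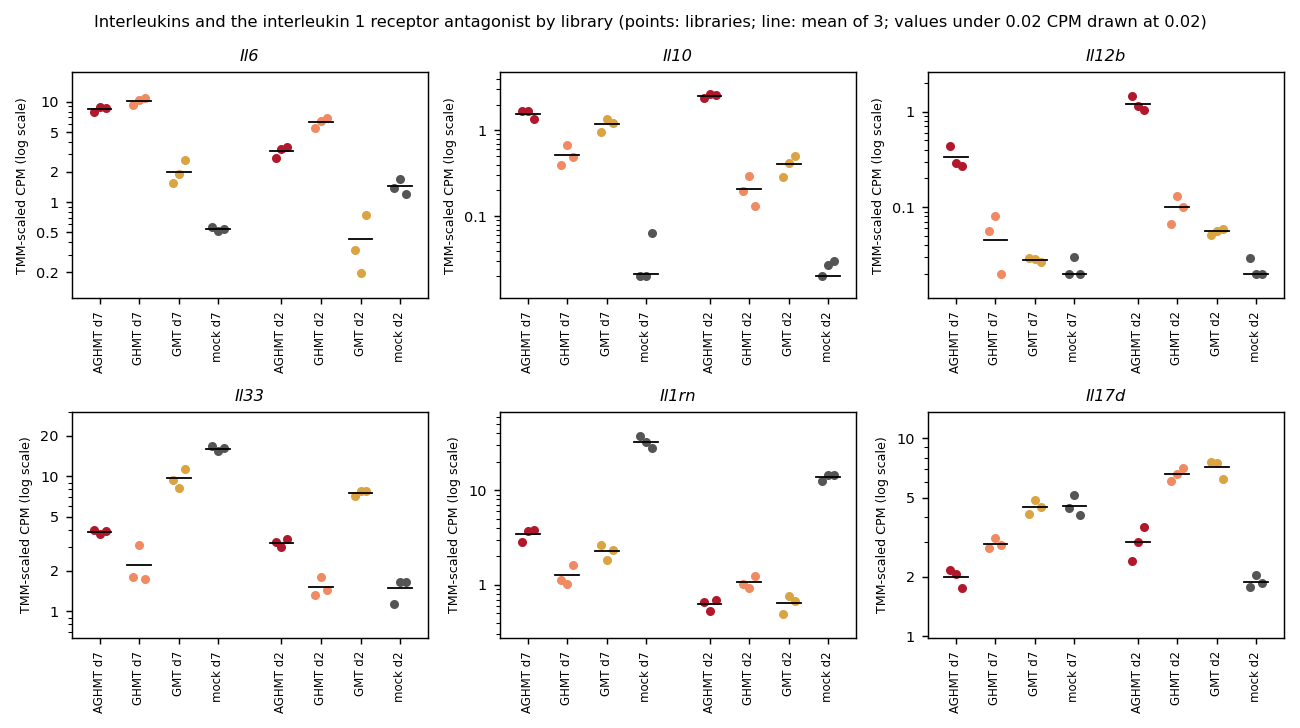
Level of 5 interleukins and of the antagonist Il1rn in each of the 24 libraries, in TMM-scaled CPM on a log scale, with AGHMT, GHMT, GMT and mock at day 7 (d7) left of the same groups at day 2 (d2). Points are libraries, black lines are means of 3, and values at or near 0 are drawn at the lowest level shown. Il6 is highest with GHMT, Il10 and Il12b are highest with AGHMT at day 2, and Il1rn is far below mock with every cocktail.

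Among the receptor chains, the detected genes of the interleukin 1 receptor cluster were lower with every cocktail at both days. Its 6 genes on chromosome 1 span 477.6 kb (chr1:40074079-40551705, GRCm38), of which Il1r1, Il1rl2, Il1rl1 and Il18rap were detected. Il1r1 is the signalling receptor of interleukin 1. Il1r1 stood at 36.5, 34.1 and 38.1 CPM with AGHMT, 41.6, 38.0 and 41.2 CPM with GHMT and 40.4, 36.2 and 44.1 CPM with GMT, against 118, 119 and 119 CPM in mock, at day 7. Il1r1 stood at 31.3, 29.0 and 25.9 CPM with AGHMT, 40.4, 41.9 and 39.8 CPM with GHMT and 48.6, 50.6 and 49.2 CPM with GMT, against 126, 120.4 and 128 CPM in mock, at day 2. Every cocktail library was far below every mock library at both days. Il1r1 log2 fold changes against the day 7 mock were -1.71 (SE 0.063, edgeR adjusted p = 3.37e-18) with AGHMT, -1.56 (SE 0.062, edgeR adjusted p = 2.14e-17) with GHMT and -1.56 (SE 0.062, edgeR adjusted p = 1.98e-17) with GMT. Il1r1 log2 fold changes against the day 2 mock were -2.12 (SE 0.064, edgeR adjusted p = 6.6e-20) with AGHMT, -1.62 (SE 0.062, edgeR adjusted p = 1.51e-17) with GHMT and -1.33 (SE 0.061, edgeR adjusted p = 5.43e-16) with GMT. Il1rl2, the receptor of the interleukin 36 cytokines, averaged 6.07 ± 0.937 CPM with AGHMT, 6.47 ± 0.875 with GHMT and 7.18 ± 0.755 with GMT, against 51.9 ± 1.42 in mock, at day 7 (SD, n = 3 each). Il1rl2 log2 fold changes against the day 7 mock were -3.09 (SE 0.095, edgeR adjusted p = 9.5e-20) with AGHMT, -3.01 (SE 0.093, edgeR adjusted p = 1.38e-19) with GHMT and -2.85 (SE 0.092, edgeR adjusted p = 2.75e-19) with GMT. Il1rl2 log2 fold changes at day 2 were -2.31 with AGHMT, -2.38 with GHMT and -1.97 with GMT.

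Il1rl1, the receptor of Il33 (ENSMUSG00000026069, chr1:40429570-40465415, plus strand), changed furthest at day 2 among the 8 receptor chains with the highest CPM. Il1rl1 stood at 5.85, 6.67 and 6.68 CPM with AGHMT, 5.91, 5.00 and 7.26 CPM with GHMT and 9.79, 7.92 and 9.88 CPM with GMT, against 547, 485 and 457 CPM in mock, at day 2. Il1rl1 stood at 14.1, 11.2 and 16.7 CPM with AGHMT, 16.0, 15.7 and 17.9 CPM with GHMT and 28.8, 21.3 and 24.0 CPM with GMT, against 107, 107 and 111 CPM in mock, at day 7. No cocktail library came near mock at either day. Il1rl1 log2 fold changes against the day 2 mock were -6.28 (SE 0.13, edgeR adjusted p = 5.42e-23) with AGHMT, -6.36 (SE 0.14, edgeR adjusted p = 8.85e-23) with GHMT and -5.75 (SE 0.13, edgeR adjusted p = 2.25e-22) with GMT. Il1rl1 log2 fold changes against the day 7 mock were -2.95 (SE 0.12, edgeR adjusted p = 1.83e-17) with AGHMT, -2.71 (SE 0.11, edgeR adjusted p = 7.47e-17) with GHMT and -2.13 (SE 0.11, edgeR adjusted p = 4.3e-15) with GMT. In mock it was lower at day 7 than at day 2, by a log2 fold change of -2.20 (SE 0.10, edgeR adjusted p = 3.99e-15). Ligand and receptor ran in opposite directions in mock over time, with Il33 higher and Il1rl1 lower at day 7. Il18rap, the accessory chain of the interleukin 18 receptor, was likewise high in mock at day 2. Il18rap stood at 0.0869, 0.0986 and 0.139 CPM with AGHMT, 0.330, 0.298 and 0.233 CPM with GHMT and 0.620, 0.367 and 0.564 CPM with GMT, against 13.7, 10.9 and 11.5 CPM in mock, at day 2. Il18rap log2 fold changes against the day 2 mock were -6.74 (SE 0.19, edgeR adjusted p = 1.87e-20) with AGHMT, -5.37 (SE 0.17, edgeR adjusted p = 1.5e-19) with GHMT and -4.52 (SE 0.14, edgeR adjusted p = 2.54e-19) with GMT. Il18rap stood at 1.04, 1.11 and 0.862 CPM with AGHMT, 1.04, 1.31 and 1.41 CPM with GHMT and 1.90, 1.71 and 1.91 CPM with GMT, against 2.57, 2.26 and 2.57 CPM in mock, at day 7. Il18rap log2 fold changes against the day 7 mock were -1.30 (SE 0.16, edgeR adjusted p = 8.03e-08) with AGHMT, -0.98 (SE 0.15, edgeR adjusted p = 2.81e-06) with GHMT and -0.42 (SE 0.14, edgeR adjusted p = 0.0093) with GMT.

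Il1rap, the coreceptor that Il1r1, Il1rl1 and Il1rl2 share, lies on another chromosome and moved less. It averaged 38.6 ± 0.728 CPM with AGHMT, 22.8 ± 1.37 with GHMT and 17.5 ± 0.340 with GMT, against 32.8 ± 1.47 in mock, at day 7 (SD, n = 3 each). It averaged 26.4 ± 1.17 CPM with AGHMT, 19.8 ± 1.28 with GHMT and 18.7 ± 0.687 with GMT, against 36.3 ± 1.42 in mock, at day 2 (SD, n = 3 each). Il1rap log2 fold changes were 0.24 with AGHMT, -0.52 with GHMT and -0.91 with GMT at day 7 and -0.46 with AGHMT, -0.88 with GHMT and -0.96 with GMT at day 2, and all 6 passed the test. AGHMT was the one cocktail above mock, at day 7.

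Chains of the interleukin 6 and interleukin 4 receptors fell as well. Il6st, the signalling chain also called gp130, had the highest CPM of the receptor chains. Il6st stood at 313, 301 and 319.9 CPM with AGHMT, 332, 295 and 341 CPM with GHMT and 234, 244 and 259 CPM with GMT, against 950.5, 948 and 933 CPM in mock, at day 7. Il6st stood at 284, 275 and 212 CPM with AGHMT, 369, 371 and 348 CPM with GHMT and 309.6, 298 and 322 CPM with GMT, against 632, 678 and 699 CPM in mock, at day 2. Every cocktail library was below every mock library of its day. Il6st log2 fold changes against the day 7 mock were -1.6 (SE 0.075, edgeR adjusted p = 6.52e-16) with AGHMT, -1.55 (SE 0.075, edgeR adjusted p = 1.47e-15) with GHMT and -1.94 (SE 0.076, edgeR adjusted p = 1.7e-17) with GMT. Il6ra, which binds interleukin 6 itself, averaged 3.28 ± 0.0756 CPM with AGHMT, 3.85 ± 0.386 with GHMT and 6.35 ± 0.182 with GMT, against 15.6 ± 1.55 in mock, at day 7 (SD, n = 3 each). Il6ra log2 fold changes against the day 7 mock were -2.25 (SE 0.081, edgeR adjusted p = 2.77e-18) with AGHMT, -2.02 (SE 0.078, edgeR adjusted p = 1.33e-17) with GHMT and -1.29 (SE 0.072, edgeR adjusted p = 2.5e-14) with GMT. Il6 and both of its receptor chains moved in opposite directions with every cocktail at day 7. Il4ra stood at 23.6, 20.4 and 23.9 CPM with AGHMT, 21.9, 22.4 and 24.9 CPM with GHMT and 26.3, 24.0 and 29.4 CPM with GMT, against 120.3, 117 and 105 CPM in mock, at day 7. Il4ra log2 fold changes against the day 7 mock were -2.33 (SE 0.072, edgeR adjusted p = 1.12e-19) with AGHMT, -2.31 (SE 0.072, edgeR adjusted p = 1.43e-19) with GHMT and -2.10 (SE 0.071, edgeR adjusted p = 7.19e-19) with GMT. Il4ra, the chain shared by the receptors of interleukin 4 and interleukin 13, fell further at day 2, by log2 fold changes of -3.32 with AGHMT, -3.30 with GHMT and -2.60 with GMT.

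Il17rd, an interleukin 17 receptor relative that also damps FGF signalling, was graded by cocktail. Il17rd stood at 9.06, 8.49 and 9.72 CPM with AGHMT, 19.6, 17.6 and 21.6 CPM with GHMT and 33.1, 32.5 and 34.2 CPM with GMT, against 59.4, 64.2 and 59.4 CPM in mock, at day 7. Il17rd stood at 11.7, 11.3 and 7.87 CPM with AGHMT, 22.9, 23.3 and 19.7 CPM with GHMT and 33.8, 32.6 and 34.5 CPM with GMT, against 47.5, 49.0 and 46.5 CPM in mock, at day 2. The order was AGHMT lowest, then GHMT, GMT and mock at both days, without overlap. Il17rd log2 fold changes against the day 7 mock were -2.74 (SE 0.096, edgeR adjusted p = 1.4e-18) with AGHMT, -1.64 (SE 0.087, edgeR adjusted p = 1.01e-14) with GHMT and -0.87 (SE 0.083, edgeR adjusted p = 9.38e-10) with GMT. AGHMT lay below GHMT by a log2 fold change of -1.10 (SE 0.10, edgeR adjusted p = 1.59e-09) and GHMT below GMT by -0.77 (SE 0.089, edgeR adjusted p = 1.1e-07) at day 7. Il31ra stood at 0.0944, 0.131 and 0.149 CPM with AGHMT, 0.140, 0.109 and 0.0984 CPM with GHMT and 0.267, 0.228 and 0.618 CPM with GMT, against 9.13, 10.4 and 9.45 CPM in mock, at day 7. Il31ra, the receptor of the itch cytokine interleukin 31, was high in mock at day 7 and under 1 CPM with every cocktail. Il31ra log2 fold changes against the day 7 mock were -6.23 (SE 0.26, edgeR adjusted p = 4.34e-17) with AGHMT, -6.33 (SE 0.26, edgeR adjusted p = 3.25e-17) with GHMT and -4.67 (SE 0.21, edgeR adjusted p = 1.84e-16) with GMT. Il31ra stood at 0.203, 0.230 and 0.139 CPM with AGHMT, 0.198, 0.133 and 0.233 CPM with GHMT and 3.05, 2.65 and 2.35 CPM with GMT, against 0.233, 0.731 and 0.509 CPM in mock, at day 2. GMT libraries stood above all others at day 2. Il31ra log2 fold changes against the day 2 mock were -1.38 (SE 0.41, edgeR adjusted p = 0.00397) with AGHMT, -1.38 (SE 0.42, edgeR adjusted p = 0.00567) with GHMT and 2.43 (SE 0.23, edgeR adjusted p = 1.12e-09) with GMT. The AGHMT and GHMT calls at day 2 were lost without mock replicate 2, at edgeR adjusted p values of 0.0595 and 0.0725.

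Other receptor chains were above mock. Il23r, the specific chain of the interleukin 23 receptor, was near 0 in mock. Il23r stood at 3.08, 2.68 and 2.62 CPM with AGHMT, 2.24, 2.18 and 2.62 CPM with GHMT and 4.18, 4.48 and 3.57 CPM with GMT, against 0.0296, 0.0302 and 0 CPM in mock, at day 7. Il23r stood at 0.203, 0.164 and 0.139 CPM with AGHMT, 0.562, 0.398 and 0.466 CPM with GHMT and 1.19, 1.13 and 1.19 CPM with GMT, against 0.0875, 0.0271 and 0 CPM in mock, at day 2. Each cocktail held more Il23r at day 7 than at day 2, and GMT held the most at both days. Mock at day 7 held 2 reads in all, on which Il23r was higher by 138-fold (95% exact interval 37.7 to 1141) with AGHMT, 115-fold (95% exact interval 31.4 to 954) with GHMT and 200.4-fold (95% exact interval 55.1 to 1660.0) with GMT. Il23r log2 fold changes against the day 2 mock were 2.04 (SE 0.59, edgeR adjusted p = 0.0039) with AGHMT, 3.51 (SE 0.47, edgeR adjusted p = 4.08e-07) with GHMT and 4.80 (SE 0.37, edgeR adjusted p = 2.21e-11) with GMT. GHMT lay below GMT at day 7 by a log2 fold change of -0.80 (SE 0.13, edgeR adjusted p = 1.93e-05).

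Il17re, the chain that binds interleukin 17C, was ordered the other way round. Il17re stood at 12.0, 10.9 and 10.6 CPM with AGHMT, 4.15, 2.39 and 3.54 CPM with GHMT and 0.445, 0.40 and 0.188 CPM with GMT, against 1.33, 1.33 and 1.33 CPM in mock, at day 7. Il17re stood at 2.14, 1.71 and 1.75 CPM with AGHMT, 0.297, 0.265 and 0.433 CPM with GHMT and 0.0517, 0.141 and 0.208 CPM with GMT, against 0, 0.217 and 0.0898 CPM in mock, at day 2. AGHMT was highest at both days, and GMT lay below mock at day 7. Il17re log2 fold changes against the day 7 mock were 3.07 (SE 0.19, edgeR adjusted p = 1.47e-13) with AGHMT, 1.33 (SE 0.22, edgeR adjusted p = 6.29e-06) with GHMT and -1.96 (SE 0.34, edgeR adjusted p = 1.38e-05) with GMT. AGHMT exceeded GHMT by a log2 fold change of 1.74 (SE 0.16, edgeR adjusted p = 1.78e-09) and GHMT exceeded GMT by 3.29 (SE 0.28, edgeR adjusted p = 5.3e-10) at day 7. At day 2 the AGHMT log2 fold change against mock was 4.11 (SE 0.41, edgeR adjusted p = 1.57e-09). The GHMT log2 fold change at day 2 was 1.62 (SE 0.61, edgeR adjusted p = 0.0225) a call lost without GHMT replicate 3 or mock replicate 1 or 3, at edgeR adjusted p values up to 0.107.

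Il17ra, the shared chain of the interleukin 17 receptors, and Il10rb, shared by the receptors of interleukin 10, interleukin 22 and interferon lambda, were higher with every cocktail. Il17ra stood at 42.5, 41.4 and 41.2 CPM with AGHMT, 84.6, 93.5 and 90.4 CPM with GHMT and 77.4, 81.3 and 76.1 CPM with GMT, against 32.6, 34.5 and 31.3 CPM in mock, at day 7. Il17ra log2 fold changes against the day 7 mock were 0.35 (SE 0.046, edgeR adjusted p = 2.8e-07) with AGHMT, 1.45 (SE 0.045, edgeR adjusted p = 1.59e-19) with GHMT and 1.26 (SE 0.045, edgeR adjusted p = 3.08e-18) with GMT. GHMT and GMT lay well above AGHMT. At day 2 Il17ra log2 fold changes were 0.11 with AGHMT, 0.73 with GHMT and 0.85 with GMT. The AGHMT call of Il17ra at day 2 was lost with no filter on low counts, with only the compared libraries, and without AGHMT replicate 1 or 2 or mock replicate 1 or 3, at edgeR adjusted p values of 0.0582 to 0.137. Il10rb averaged 33.0 ± 1.33 CPM with AGHMT, 43.7 ± 1.05 with GHMT and 40.8 ± 0.969 with GMT, against 20.9 ± 0.794 in mock, at day 7 (SD, n = 3 each). Il10rb log2 fold changes against the day 7 mock were 0.66 (SE 0.065, edgeR adjusted p = 1.55e-09) with AGHMT, 1.06 (SE 0.064, edgeR adjusted p = 1.16e-13) with GHMT and 0.96 (SE 0.064, edgeR adjusted p = 8.09e-13) with GMT. Il20rb, a chain of the interleukin 20 receptor complex, rose by log2 fold changes of 1.48 with AGHMT, 1.37 with GHMT and 1.10 with GMT at day 7 and 0.57 with AGHMT, 1.19 with GHMT and 1.68 with GMT at day 2. Il2rb, the chain that the receptors of interleukin 2 and interleukin 15 share, averaged 1.14 ± 0.122 CPM with AGHMT, 1.2 ± 0.224 with GHMT and 0.267 ± 0.103 with GMT, against 0.112 ± 0.0205 in mock, at day 7 (SD, n = 3 each). Il2rb log2 fold changes were 3.30 (SE 0.38, edgeR adjusted p = 2.19e-08) with AGHMT and 3.40 (SE 0.37, edgeR adjusted p = 1.08e-08) with GHMT at day 7. With GMT at day 7 it was 1.22 (SE 0.51, edgeR adjusted p = 0.0368), a call lost without GMT replicate 1 or any 1 mock library, at edgeR adjusted p values up to 0.183.

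Some chains split by cocktail. Il27ra, of the interleukin 27 receptor, stood at 2.67, 2.38 and 2.26 CPM with AGHMT, 7.59, 8.27 and 8.04 CPM with GHMT and 7.00, 7.6 and 7.17 CPM with GMT, against 2.66, 3.35 and 2.60 CPM in mock, at day 7. GHMT and GMT were above mock without overlap, and AGHMT overlapped it. AGHMT lay below GHMT by a log2 fold change of -1.71 (SE 0.098, edgeR adjusted p = 2.59e-13). Il3ra, of the interleukin 3 receptor, had the same split, with log2 fold changes of -0.11 with AGHMT, 0.82 with GHMT and 0.92 with GMT at day 7, where AGHMT did not pass the test. At day 2 this split was absent, and both Il27ra and Il3ra were called higher than mock with every cocktail. Il13ra1 stood at 43.6, 47.7 and 42.5 CPM with AGHMT, 41.2, 35.1 and 34.9 CPM with GHMT and 15.2, 16.1 and 15.7 CPM with GMT, against 32.5, 33.2 and 35.2 CPM in mock, at day 7. GMT alone was below mock for Il13ra1, a chain of the interleukin 13 receptor. Il13ra1 log2 fold changes against the day 7 mock were 0.41 (SE 0.07, edgeR adjusted p = 1.03e-05) with AGHMT, 0.14 (SE 0.07, edgeR adjusted p = 0.0725) with GHMT and -1.10 (SE 0.075, edgeR adjusted p = 1.27e-12) with GMT. Il11ra1 stood at 40.3, 41.8 and 41.3 CPM with AGHMT, 34.7, 36.7 and 33.6 CPM with GHMT and 21.5, 20.8 and 19.1 CPM with GMT, against 85.8, 80.7 and 74.7 CPM in mock, at day 7. Il11ra1, the interleukin 11 receptor, was lower with every cocktail at day 7, and at day 2 it was higher with AGHMT, by a log2 fold change of 0.65 (SE 0.08, edgeR adjusted p = 7.66e-08), and lower with GMT, by -1.03 (SE 0.086, edgeR adjusted p = 8.15e-11).

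Chains of the leukocyte receptors were low. Il10ra, Il21r and Il2rg averaged at most 1.8, 1.78 and 2.94 CPM in any group, in the order named. Il21r fell at day 7 by log2 fold changes of -3.91 with AGHMT, -2.80 with GHMT and -3.93 with GMT and passed the test in no cocktail at day 2. Il2rg, the common gamma chain, fell at both days, by -1.79 with AGHMT, -1.76 with GHMT and -1.63 with GMT at day 7 and -2.51 with AGHMT, -2.62 with GHMT and -2.87 with GMT at day 2. Il10ra, the ligand-binding chain of the interleukin 10 receptor, differed with AGHMT at day 2 by 2.31 (SE 0.32, edgeR adjusted p = 3.98e-07) and at day 7 by -1.02 (SE 0.24, edgeR adjusted p = 0.000447) with GHMT and -3.03 (SE 0.31, edgeR adjusted p = 3.8e-09) with GMT. It did not pass with AGHMT at day 7, at -0.0095 (SE 0.21, edgeR adjusted p = 0.969), nor with GHMT or GMT at day 2. Summed levels of T cell, B cell and neutrophil markers did not pass 2.36, 0.408 and 0.364 CPM in any library. Il15ra, a chain of the interleukin 15 receptor, had log2 fold changes between -0.78 and 0.20 over the 6 comparisons with mock, and Il17rc, a chain of the interleukin 17 receptor, between -0.47 and -0.19.

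**Figure D4:**
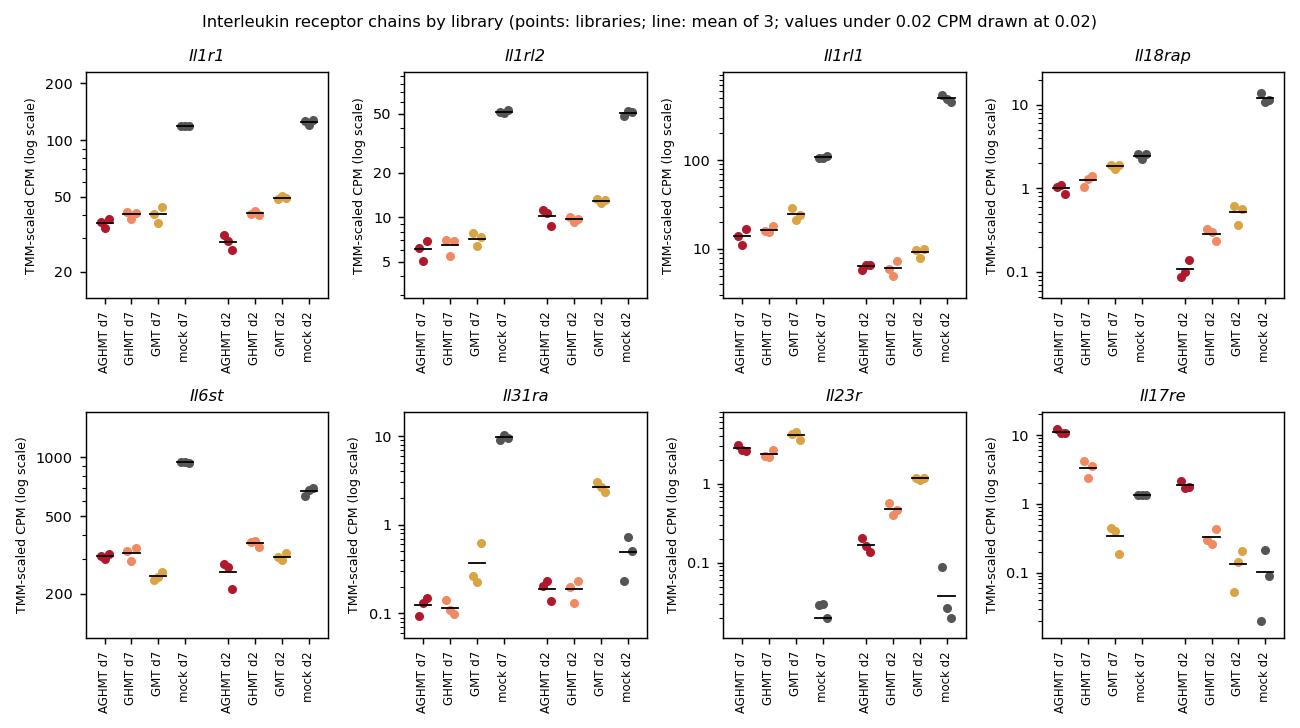
Level of 8 interleukin receptor chains in each of the 24 libraries, in TMM-scaled CPM on a log scale, with AGHMT, GHMT, GMT and mock at day 7 (d7) left of the same groups at day 2 (d2). Points are libraries, black lines are means of 3, and values at or near 0 are drawn at the lowest level shown. The 4 chains in the top row and Il6st sit below mock in every cocktail library, Il23r sits above mock, and Il17re runs down from AGHMT to GMT.

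Adding Hand2 (GHMT against GMT) moved fewer members than any cocktail did against mock, and the same held for all genes. Of the tested members, 41.1% were called at day 7 and 43.8% at day 2, near the shares of all genes given next. Against mock, 67.1% to 76.8% of all genes were called. At day 7, 30 of the 73 tested members differed (18 higher, 12 lower), where 37.5% of all genes were called, and 11 of them by at least 2-fold, where 8.12% of all genes were. At day 2, 32 differed (16 higher, 16 lower; background 44.8%), 17 by at least 2-fold (9.79%). Besides Cxcl12 and Il6 at both days and Il17re at day 7, Ccl17 was higher with GHMT at day 7, by a log2 fold change of 2.40 (SE 0.14, edgeR adjusted p = 6.13e-13). Ccl2 was higher by 1.23 (SE 0.11, edgeR adjusted p = 6.41e-10) at day 7 and 1.83 (SE 0.12, edgeR adjusted p = 1.55e-12) at day 2. Cxcl10 at day 2 was higher by 2.27 (SE 0.23, edgeR adjusted p = 1e-08). Il13ra1 was higher by 1.24 (SE 0.074, edgeR adjusted p = 5.35e-13) at day 7. Il33, Il23r, Il17rd and Il6ra were lower with GHMT at both days.

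Adding Akt1 (AGHMT against GHMT) changed 34 of the 73 at day 7 (17 higher, 17 lower), where 48.7% of all genes were called, and 16 by at least 2-fold, where 8.88% were. At day 2 it changed 41 (11 higher, 30 lower; background 52.7%), 22 by at least 2-fold (10.7%). Cxcl10 was lower with AGHMT, by a log2 fold change of -2.69 (SE 0.38, edgeR adjusted p = 1.87e-06) at day 7 and -1.92 (SE 0.23, edgeR adjusted p = 1.19e-07) at day 2. Ccl17 was lower by -2.67 (SE 0.15, edgeR adjusted p = 2.3e-13) at day 7 and Il17ra by -1.10 (SE 0.045, edgeR adjusted p = 3.27e-16). Higher with AGHMT were Cxcl13, Il10, Il12b, Il17re and Cxcl12 at both days, by the levels or tests given above. Il18 was higher by 0.75 (SE 0.20, edgeR adjusted p = 0.00341) at day 7 and 1.71 (SE 0.28, edgeR adjusted p = 1.07e-05) at day 2. These comparisons share the GHMT libraries with those of GHMT against GMT and against mock.

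Members also differed between the days in mock. Between day 7 and day 2, 53 of the 73 differed (31 higher, 22 lower at day 7), where 55.5% of all genes were called, and 33 by at least 2-fold, where 13.8% were. Higher at day 7 were Cxcl14, Cxcl12, Il33 and Il31ra, given above, and Il17re, by a log2 fold change of 3.62 (SE 0.44, edgeR adjusted p = 1.5e-07). Il1rn stood at 37.4, 32.1 and 28.2 CPM at day 7, against 12.6, 14.5 and 14.4 CPM at day 2. Lower at day 7 were Cxcl10, Cxcl9, Il1rl1, Il18rap and Ccl5, the last by -4.36 (SE 0.31, edgeR adjusted p = 1.12e-11). The macrophage markers moved in mock too, with all 18 higher at day 7.

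The difference between a cocktail's day 7 and day 2 effects was tested directly. It passed for 42 of the 73 members with AGHMT (26 higher, 16 lower at day 7; background 50.9%), for 45 with GHMT (24 higher, 21 lower; 49.3%) and for 46 with GMT (22 higher, 24 lower; 49.5%). Ccl2 differed by a log2 value of 3.02 (SE 0.16, edgeR adjusted p = 3.4e-14) with AGHMT, 2.40 (SE 0.15, edgeR adjusted p = 1.95e-12) with GHMT and 3.0 (SE 0.16, edgeR adjusted p = 8.14e-14) with GMT. Il33 differed by -3.16 (SE 0.23, edgeR adjusted p = 2.15e-11) with AGHMT, -2.88 (SE 0.28, edgeR adjusted p = 3.74e-09) with GHMT and -3.09 (SE 0.20, edgeR adjusted p = 3.54e-12) with GMT. Each such difference holds the change of the mock level as well as that of the cocktail.

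The receptors and signalling genes around the members were followed through lists of related genes. Of 24 chemokine receptor genes, 13 had enough counts to test, and with AGHMT 5 were higher and 7 lower than mock at day 7. With GHMT 4 were higher and 5 lower, and with GMT 4 were higher and 8 lower. At day 2 the counts were 5 higher and 6 lower with AGHMT, 5 and 3 with GHMT, and 4 and 3 with GMT. Of all genes tested, the share called in either direction was 76.8% with AGHMT, 72.0% with GHMT and 73.0% with GMT at day 7 and 75.4%, 68.2% and 67.1% in the same order at day 2. The receptors' median log2 fold change at day 7 was -0.67 with AGHMT, -0.075 with GHMT and -0.76 with GMT, beside a median near 0 for all genes. Xcr1, the receptor of lymphotactin, stood at 2.67 CPM with AGHMT, 4.08 CPM with GHMT and 7.95 CPM with GMT, against 0.0609 CPM in mock, at day 7, with a log2 fold change of 6.94 (edgeR adjusted p = 8.61e-18) for GMT. Cxcr6, the receptor of Cxcl16, stood at 3.75 CPM with AGHMT, 8.64 CPM with GHMT and 6.53 CPM with GMT, against 0.315 CPM in mock, at day 7, and GHMT differed by 4.76 (edgeR adjusted p = 1.77e-17). Ackr1, a scavenging chemokine receptor, stood at 10.3 CPM with AGHMT, 3.71 CPM with GHMT and 0.166 CPM with GMT, against 0.408 CPM in mock, at day 2, and AGHMT differed by 4.63 (edgeR adjusted p = 9.31e-19). Ccrl2, which binds chemerin, rose with all cocktails at both days, by 4.17 (edgeR adjusted p = 5.37e-16) with GMT at day 7. Cx3cr1, the receptor of Cx3cl1 and also one of the macrophage markers, stood at 0.198 CPM with AGHMT, 0.205 CPM with GHMT and 0.207 CPM with GMT, against 7.44 CPM in mock, at day 7.

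Of 28 genes of NF-kappaB and interleukin 1 signalling, 8 were higher and 13 lower than mock with AGHMT, 15 higher and 9 lower with GHMT, and 12 higher and 9 lower with GMT at day 7. At day 2, 4 were higher and 16 lower with AGHMT, 11 higher and 13 lower with GHMT, and 7 higher and 14 lower with GMT. The background was a call of 76.8% with AGHMT, 72.0% with GHMT and 73.0% with GMT at day 7, and 75.4%, 68.2% and 67.1% in the same order at day 2, among all genes. The median log2 fold changes at day 7 were -0.034 with AGHMT, 0.17 with GHMT and 0.080 with GMT. Ptgs2, the inducible cyclooxygenase, was above mock at day 7 and below it at day 2, as Ccl2 was. It stood at 94.5 CPM with AGHMT, 152 CPM with GHMT and 107 CPM with GMT, against 61.7 CPM in mock, at day 7 and at 3.70 CPM with AGHMT, 7.94 CPM with GHMT and 7.09 CPM with GMT, against 153 CPM in mock, at day 2. Ptgs2 differed by a log2 fold change of 1.30 (edgeR adjusted p = 7.49e-12) with GHMT at day 7 and -4.27 (edgeR adjusted p = 1.81e-20) at day 2. Cebpb, a transcription factor of inflammatory genes, fell with every cocktail, to 8.62 CPM with AGHMT, 11.9 CPM with GHMT and 11.9 CPM with GMT, against 26.6 CPM in mock, at day 7. Rel, an NF-kappaB subunit, rose with every cocktail, and AGHMT differed by 1.53 (edgeR adjusted p = 1.45e-14) at day 7.

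Of 20 tested genes among 21 JAK, STAT and SOCS genes, 7 were higher and 10 lower with AGHMT, 8 and 9 with GHMT, and 8 and 10 with GMT at day 7. Day 2 gave 5 and 9 with AGHMT, 6 and 9 with GHMT, and 6 and 12 with GMT. Among all genes the called share was 76.8% with AGHMT, 72.0% with GHMT and 73.0% with GMT at day 7, and 75.4%, 68.2% and 67.1% in the same order at day 2. Cish, a feedback inhibitor that STAT5 induces, stood at 44.1 CPM with AGHMT, 35.9 CPM with GHMT and 26.4 CPM with GMT, against 11.8 CPM in mock, at day 7, and AGHMT differed by 1.90 (edgeR adjusted p = 6.94e-19). Jak2, a kinase of many cytokine receptors, stood at 36.9 CPM with AGHMT, 43.7 CPM with GHMT and 64.9 CPM with GMT, against 83.0 CPM in mock, at day 7, and AGHMT differed by -1.17 (edgeR adjusted p = 5.7e-16). Stat6, the factor of interleukin 4 signalling, was lower with AGHMT at day 7, by -0.50 (edgeR adjusted p = 9.58e-11), and did not pass with GHMT, at -0.037 (edgeR adjusted p = 0.43).

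Of 16 cytokines with no Il symbol, 11 were tested, and 3 were higher and 7 lower with AGHMT, 4 and 6 with GHMT, and 5 and 5 with GMT at day 7. At day 2, 0 were higher and 10 lower with AGHMT, 1 and 6 with GHMT, and 2 and 7 with GMT. Lif, a relative of Il6, rose at day 7, standing at 30 CPM with AGHMT, 49.4 CPM with GHMT and 46.4 CPM with GMT, against 11.7 CPM in mock, and GHMT differed by 2.07 (edgeR adjusted p = 1.25e-18). Ctf1, which encodes cardiotrophin, fell, standing at 0.996 CPM with AGHMT, 1.21 CPM with GHMT and 0.931 CPM with GMT, against 8.16 CPM in mock, at day 7. Of their 12 receptors, 11 were tested, and 2 were higher and 8 lower with AGHMT, 3 and 7 with GHMT, and 2 and 8 with GMT at day 7. Day 2 gave 2 and 7 with AGHMT, 3 and 5 with GHMT, and 3 and 5 with GMT. For both lists the background among all genes was 76.8% with AGHMT, 72.0% with GHMT and 73.0% with GMT at day 7, and 75.4%, 68.2% and 67.1% in the same order at day 2. Osmr, which pairs with Il6st and with Il31ra, fell with every cocktail, standing at 64.5 CPM with AGHMT, 77.2 CPM with GHMT and 48.2 CPM with GMT, against 210.3 CPM in mock, at day 7. Il6st, Osmr and Il31ra were all below mock with every cocktail at day 7.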

How the data were processed

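The deposited count table held raw counts of reads per gene, made by the authors. Trim Galore (0.4.1) and HISAT2 (2.0.1) are listed in the submitters' processing notes beside featureCounts (1.4.6), DESeq2 (1.6.3) and the build GRCm38 (mm10). Annotation release and strand setting: not given in the sources used here. The authors' deposited log2 table equalled log2 CPM from these counts within 0.00603, with values under 1 CPM set to 0, and served only as this check. Total RNA was extracted with TRIzol, per the labels' protocols.

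Counts were scaled by TMM and fitted with edgeR 4.0.16 in R 4.3.3 (quasi-likelihood F test, two-sided) over all 24 libraries with 1 mean per group. The filter filterByExpr kept 17576 genes, holding at least 99.9% of the counts of every library. A gene was called at a Benjamini-Hochberg adjusted p under 0.05 over all genes tested, in 14 comparisons. The common biological coefficient of variation was 5.55%. Every replicate pair differed by more than sampling noise (lowest chi-square per degree of freedom 1.54). The highest values, 46.4 and 43.2, were those of AGHMT replicate 3 at day 2 against replicates 1 and 2. GHMT replicate 2 at day 7 gave 11.6 and 10.8 against replicates 1 and 3. Where a group held 1 to 3 reads and the compared group was not also very low, a ratio of counts with a 95% exact interval is given. It covers counting error only. GENCODE M21 (GRCm38) gave the coordinates, exon lengths and overlaps and held 118 of 118 members. The count ratios were added after the data were seen.

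Per-library values were given for the 8 detected members of each role with the highest group mean and for those with a called log2 fold change of at least 2 against mock and a group mean of at least 3 CPM. From each list of related genes up to 6 were eligible, by smallest adjusted p, at 5 CPM or more. Marker lists covered fibroblasts, cardiac muscle, macrophages, T cells, B cells, neutrophils, mast cells and endothelium. The members and lists were chosen with earlier results of these data known. The code was tested on simulated counts. Alternatives were DESeq2 1.42.0, RLE scaling, no low-count filter, a fit of the compared groups alone, omission of single libraries, a replicate block, and calls of at least 2-fold.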

Additional observations from a re-analysis of the deposited data

Results flagged for a closer look

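These members were called in opposite directions at day 7 and day 2 against the mock of the same day. The difference between the 2 effects passed in the same edgeR fit too. Opposite calls made that all but certain, so it is no separate support. Values are the day 7 effect minus the day 2 effect on the log2 scale, so a positive value means a cocktail effect that is higher at day 7. Each holds the change of mock between the days. For Ccl2 the difference was 3.02 with AGHMT, 2.40 with GHMT and 3.0 with GMT, and for Ccl7 it was 2.52, 2.51 and 2.76 in the same order. Cxcl12 differed by -1.76 with AGHMT and -1.93 with GHMT, and Il17d by -1.86 and -2.44. Il33 differed by -3.16 with AGHMT and -3.09 with GMT. With AGHMT, Il11ra1 differed by -1.62, Ccl27a by -1.03 and Il1rap by 0.69. The day 7 call of Ccl27a in that pair was lost without AGHMT replicate 2, at an edgeR adjusted p of 0.134, and with DESeq2, at 0.0594. With GHMT, Ccl20 differed by 1.65 and Il11 by 1.84. With GMT, Ccl5 differed by 3.70, Cxcl10 by 3.68, Il6 by 3.69 and Il31ra by -7.10, the largest of these differences in size. No explanation of these differences was tested.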

How the results depend on the processing

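Of 882 tests of named members (63 members in 14 comparisons), 628 passed the threshold, and none changed direction as a called result under any alternative. Leaving out a library changed the call of 118 of them in at least 1 setting, and the other alternatives changed 51. The number of members called stayed within 1.5 times under DESeq2, RLE scaling, no low-count filter, only the compared libraries and each library left out. Calls of at least 2-fold were fewer: 11 for GHMT against GMT and 16 for AGHMT against GHMT at day 7, 17 and 22 for the same pairs at day 2, and 33 for mock at day 7 against mock at day 2.

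Replicate numbers gave little sign of pairing: of 33 correlations of same-numbered libraries, 1 was over 0.1 (range -0.042 to 0.27). For AGHMT against GHMT at day 2 they were 0.094, 0.072 and 0.27. Deviations from a mean of 3 libraries cannot show that pairing was absent, so it is not known. With the replicate number as a block, the number of members called was 62, 65 and 60 for AGHMT, GHMT and GMT against mock at day 7 and 61, 52 and 56 at day 2. It changed 6 calls of named members.

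Depth limits the members under 1 CPM most. Members with reads shared between neighbours or opposite strands, such as Cxcl10, Ccl25 and Il16, are uncertain.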

Other observations

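The summed level of 5 mast cell markers was 165 to 177 CPM with AGHMT, 62.9 to 70.9 CPM with GHMT and 14.1 to 15 CPM with GMT at day 7, against 0.697 to 0.814 CPM in mock, with 1 of the 5 genes at 1 CPM or more with AGHMT and Tpsb2 at 0 in all of the AGHMT and mock libraries. Endothelial markers summed to at most 13.5 CPM in any library.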
